A study of Mus musculus with 2 samples.

Results

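The activin and follistatin genes followed here are 7 of the 32285 genes counted in single cells of mouse mitral valve: Fst, Inhba, Fstl1, Fstl3, Acvr1, Acvr2a and Acvr1b. They were chosen by name with values of these same libraries known, the genotype difference of Fst in interstitial cells among them, so their levels and ratios are a description. The Fbn1 C1039G/+ library pooled valves of 3 mice and the wild type (Fbn1 +/+) library pooled valves of 5 mice, all on the C57BL/6J strain and 1 month old. Fbn1 C1039G/+ mice carry 1 copy of fibrillin-1 with a cysteine replaced, a model of Marfan syndrome, and every cell of the animal carries the change. Both leaflets were digested with enzymes and counted at the 3′ ends of transcripts with version 3.1 of the 10x Genomics droplet chemistry.

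Activins are secreted dimers of the TGF-beta family, and Inhba encodes the subunit that forms activin A. Activin binds a type II receptor such as ACVR2A, which recruits the type I receptor ACVR1B and passes the signal to SMAD2 and SMAD3. Follistatin, the product of Fst, wraps around activin outside the cell and keeps it from its receptors, and the related protein of Fstl3 does likewise. Fstl1 encodes a secreted glycoprotein with a follistatin-like domain, and Acvr1 encodes a type I receptor best known for BMP signals. A cell type can therefore make the ligand, its trap, its receptors or several of these, and single cells show which.

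Each genotype had 1 library, so no test between genotypes was possible and no p-value is given. Intervals are 95%. Those of levels and ratios cover counting error of unique molecular identifiers (UMIs, counted transcript molecules) alone and leave out the spread between cells. Those of shares of cells and of their differences treat cells as independent draws. None covers differences between mice, dissections or library preparations. The libraries held 103663375 UMIs in 9744 barcodes (Fbn1 C1039G/+) and 100969482 UMIs in 9509 barcodes (wild type), and 17 barcode sequences occurred in both. Barcodes under 1000 UMIs or over 20% mitochondrial UMIs were dropped, and the rest kept, 9540 in the Fbn1 C1039G/+ library and 9395 in the wild type library, with median depths of 9778 and 9827 UMIs. Interstitial cells, the fibroblasts that make the valve matrix, were barcodes with at least 1% of UMIs from Dcn, Col1a1, Col1a2 and Col3a1, and numbered 7768 in the Fbn1 C1039G/+ library and 7557 in the wild type library. Below that share, at least 10 UMIs of C1qa, C1qb and C1qc marked 880 Fbn1 C1039G/+ and 800 wild type macrophages, and at least 5 UMIs of Pecam1, Cdh5 and Emcn marked 318 and 250 endothelial cells, while 10 and 13 barcodes passed both limits and were left out. The 3′ counts cannot show the C1039G change itself. All 9 endothelial markers were at 20 CPM or more in the endothelial class of both libraries, as were all 10 macrophage markers in macrophages and all 12 interstitial markers in interstitial cells. CPM (counts per 1e6 UMIs of the class) sets classes and libraries side by side for 1 gene and does not rank different genes. A ratio is Fbn1 C1039G/+ over wild type, and it was called when it was at least 1.5-fold either way with an interval that excluded 1, among genes with at least 20 CPM in either library and 50 UMIs over both.

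In interstitial cells the trap and the ligand were both higher in the Fbn1 C1039G/+ library, while the receptors stood at similar levels in both libraries. Of the 7 genes 5 passed the filter on low values and 2, Fst and Inhba, were called higher. Of all 6563 interstitial genes that passed, 0.945% were called higher and 1.42% lower. The contrast helped to choose the genes, so nothing is read from that share. None of the 7 was called lower.

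Fst (chromosome 13, 114452290 to 114458951 in mm10, minus strand, protein coding) stood at 50.9 CPM (49.5 to 52.5) in Fbn1 C1039G/+ interstitial cells and 15.9 CPM (15.0 to 16.8) in wild type interstitial cells. The ratio of 3.21 (3.01 to 3.41) rests on 4405 Fbn1 C1039G/+ and 1315 wild type UMIs and was second in size among the measured interstitial genes, at rank 2. A UMI of Fst was found in 17.5% (16.6 to 18.3) of Fbn1 C1039G/+ cells and 10.1% (9.40 to 10.8) of wild type cells. With every cell thinned to 5000 UMIs, which left out 621 Fbn1 C1039G/+ and 175 wild type cells, these shares were 10.2% and 5.95%. In macrophages 1.14% of Fbn1 C1039G/+ cells at a median of 7387 UMIs and 1.13% of wild type cells at a median of 8292 UMIs held one. The interstitial shares lay well above that.

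Inhba (chromosome 13, 16011851 to 16031621, plus strand, protein coding) stood at 70.0 CPM (68.3 to 71.8) in Fbn1 C1039G/+ and 44.6 CPM (43.2 to 46.1) in wild type interstitial cells, a ratio of 1.57 (1.51 to 1.63) and rank 48. It was found in 40.8% of Fbn1 C1039G/+ and 31.2% of wild type cells, or 25.2% and 17.6% after thinning. Only 1.25% of Fbn1 C1039G/+ and 2.25% of wild type macrophages held a UMI. In male cells the Inhba ratio was 1.39, under the 1.5-fold limit, against 1.68 in female cells. Male and female cells were told apart by Y-linked and Xist UMIs, and because 1 sex of the 3-mouse pool came from a single mouse, sex and mouse cannot be told apart. The 250 bases before the start of Inhba (GRCm38.p6, chr13:16011601-16011850, plus strand, from RefSeq) are shown as the window in which the 3 motifs below were looked for, with the TATAAA match in capitals.
Inhba: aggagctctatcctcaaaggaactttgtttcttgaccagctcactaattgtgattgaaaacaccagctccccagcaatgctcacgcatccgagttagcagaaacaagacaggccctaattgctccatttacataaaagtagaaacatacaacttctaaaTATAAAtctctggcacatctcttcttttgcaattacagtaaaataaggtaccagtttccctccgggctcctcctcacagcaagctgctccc
TATAAA starts 91 bases before the start site in this window. On either strand it was found in 12.4% of 32851 such windows of RefSeq genes, and in 2 of the 6 listed genes with an entry, Inhba and Fstl3. The AP-1 motif TGACTCA, in 4.46% of windows, and the cyclic AMP response motif TGACGTCA, in 1.55%, were in 0 of the 6. Fst was the listed gene with no entry, so no motif was looked for before its start.

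The other traps and binders differed less. Fstl1 (chromosome 16, 37776873 to 37836514, plus strand) was found in nearly every interstitial cell, 99.1% of Fbn1 C1039G/+ and 99.0% of wild type cells, at 1326 CPM (1318 to 1333) and 1158 CPM (1151 to 1166), a ratio of 1.14. Fstl3 (chromosome 10, 79777272 to 79782630, plus strand) stood at 44.7 CPM in Fbn1 C1039G/+ and 37.5 CPM in wild type cells, a ratio of 1.19 (1.13 to 1.25). Both ratios excluded 1 by counting error and stayed under 1.5-fold.

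Of the receptors, Acvr1 (chromosome 2, 58388644 to 58567157, minus strand) stood at 76.1 CPM in Fbn1 C1039G/+ and 70.2 CPM in wild type interstitial cells, a ratio of 1.08 (1.05 to 1.12). Acvr2a (chromosome 2, 48814109 to 48903269, plus strand) had 9.83 CPM in Fbn1 C1039G/+ and 10.5 CPM in wild type cells (ratio 0.938, 0.853 to 1.03), from 850 and 867 UMIs. Acvr1b (chromosome 15, 101174067 to 101213684, plus strand) stood at 7.18 CPM in Fbn1 C1039G/+ and 7.70 CPM in wild type cells, a ratio of 0.933 (0.834 to 1.04). Both activin receptors lay below the filter on low values, and their intervals cover 1 and leave out a 1.5-fold difference either way.

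**Figure D1:**
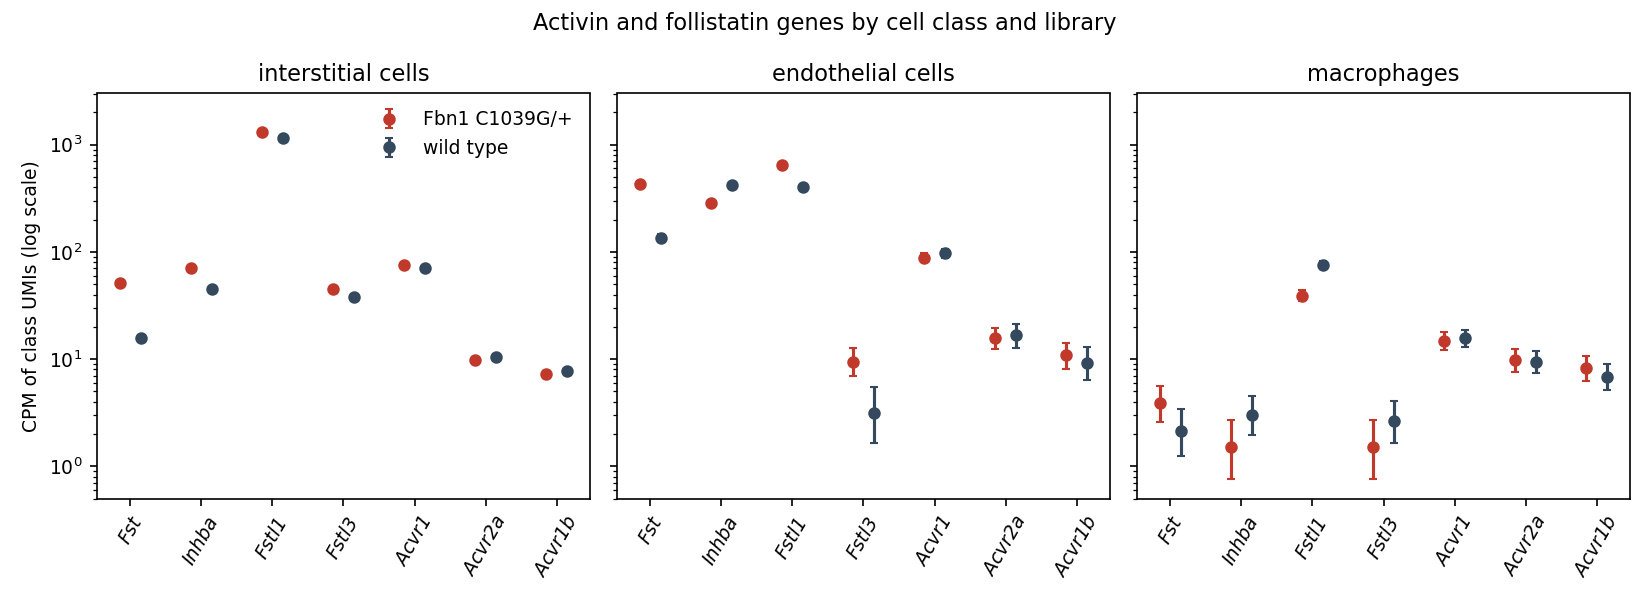
Level of each of the 7 genes in CPM (log axis) in interstitial cells, endothelial cells and macrophages, with Fbn1 C1039G/+ to the left of wild type in each pair and bars for exact Poisson 95% intervals. Fst lies higher in Fbn1 C1039G/+ in interstitial and endothelial cells, at 431 against 134 CPM in the endothelial class, while Inhba is higher in the interstitial class and lower in the endothelial class.

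Endothelial cells, which line the leaflets, held more Fst per UMI than interstitial cells in both libraries. Fst stood at 431 CPM (413 to 450) in Fbn1 C1039G/+ and 134 CPM (123 to 146) in wild type endothelial cells, a ratio of 3.21 (2.92 to 3.55). It was found in 54.4% of Fbn1 C1039G/+ and 36.0% of wild type cells, or 47.2% and 23.9% after thinning. The 5 endothelial cells with most Fst held 25.5% of its UMIs in Fbn1 C1039G/+ and 41.1% in wild type. By CPM the order of classes for Fst and for Inhba was endothelial, interstitial and macrophage in both libraries, and intervals of neighbouring classes did not overlap. By share of cells holding a UMI the order was the same for Fst in both libraries and for Inhba in the wild type library. For Inhba in the Fbn1 C1039G/+ library the share was 40.8% (39.7 to 41.9) in interstitial and 33.3% (28.2 to 38.8) in endothelial cells.

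Inhba ran the other way in endothelial cells, at 283 CPM (269 to 299) in Fbn1 C1039G/+ and 418 CPM (398 to 439) in wild type cells, a ratio of 0.678 (0.630 to 0.729) just short of the 1.5-fold limit. It was found in 33.3% of Fbn1 C1039G/+ and 44.0% of wild type cells. Inhba stood higher in endothelial cells that also held Nppc, the gene of C-type natriuretic peptide. With at least 1 Nppc UMI, Inhba stood at 1148 CPM in 18 Fbn1 C1039G/+ cells and 1244 CPM in 48 wild type cells. The ratio in these cells was 0.923 (0.829 to 1.03). Those cells were 5.66% of the Fbn1 C1039G/+ and 19.2% of the wild type class. Among endothelial cells with no Nppc UMI, Inhba was higher in the Fbn1 C1039G/+ library, at 201 CPM against 146 CPM in wild type, a ratio of 1.38 (1.22 to 1.55). The direction of the Inhba difference in endothelial cells thus depended on whether the Nppc-holding cells were counted in. Nppc was used for this split after its values were seen.

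Fst in endothelial cells was higher in the Fbn1 C1039G/+ library in every split made. In cells with a UMI of Prox1, a transcription factor of lymphatic and valve endothelium, it stood at 493 CPM in Fbn1 C1039G/+ and 157 CPM in wild type, and in cells with none at 259 and 97.1 CPM. In cells with a UMI of the cell cycle genes Top2a or Mki67, Fst stood at 864 CPM in 54 Fbn1 C1039G/+ cells and 305 CPM in 27 wild type cells, and in the other cells at 261 and 97.5 CPM. Inhba in the Top2a or Mki67 cells was 176 CPM in Fbn1 C1039G/+ and 76.4 CPM in wild type, again above wild type where the class as a whole was below it. These endothelial splits were also chosen after values were seen.

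Among the other genes in endothelial cells, Fstl1 stood at 646 CPM in Fbn1 C1039G/+ and 406 CPM in wild type, a ratio of 1.59. The 12 interstitial markers summed to 16372 CPM in Fbn1 C1039G/+ and 13178 CPM in wild type endothelial cells, and their part in the Fstl1 difference was not tested. Fstl3 was at 9.44 CPM from 46 UMIs in Fbn1 C1039G/+ and 3.17 CPM from 12 UMIs in wild type, below the filter. Acvr1 (88.3 CPM in Fbn1 C1039G/+ and 96.7 CPM in wild type), Acvr2a (15.6 and 16.6 CPM) and Acvr1b (10.9 and 9.25 CPM) had ratios whose intervals included 1. Of the 7 genes 4 passed the filter and 2, Fst and Fstl1, were called higher, where 3.22% of 7240 endothelial genes were called higher and 3.23% lower.

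Macrophages held few transcripts of ligand and traps. To show what carried-over interstitial RNA could give, 10 matrix genes of interstitial cells (picked after the values were seen) were read in macrophages, where they stood at 1.98% to 3.72% of their interstitial level in the Fbn1 C1039G/+ library and 3.89% to 7.68% in the wild type library. Inhba (2.16% in Fbn1 C1039G/+ and 6.82% in wild type), Fstl1 (2.95% and 6.48%) and Fstl3 (3.39% and 7.09%) fell within those ranges. The part of carried-over RNA in their macrophage UMIs was not tested. Fstl1 in macrophages was called lower, at 39.1 CPM in Fbn1 C1039G/+ against 75.0 CPM in wild type, as were 3.62% of 6080 macrophage genes, and 1.43% were called higher. The 10 matrix genes had the same order, with medians of 2.67% in the Fbn1 C1039G/+ and 5.06% in the wild type library. The share of macrophages with an Fstl1 UMI did not follow that order, at 14.7% in Fbn1 C1039G/+ and 13.1% in wild type. The 1% of macrophages with most Fstl1 held 46.5% of its UMIs in Fbn1 C1039G/+ and 55.7% in wild type. Fst lay above the ranges, at 7.57% and 13.6%, from 28 Fbn1 C1039G/+ and 17 wild type UMIs in 10 and 9 cells, and 1 Fbn1 C1039G/+ cell held 13 of them.

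The receptors were different in macrophages. Acvr2a in macrophages was 99.5% of its interstitial level in the Fbn1 C1039G/+ library and 89.5% in the wild type library, at 9.78 and 9.38 CPM. Acvr1b reached 115% and 88.9%, at 8.26 and 6.84 CPM, and Acvr1 19.5% and 22.4%. Transcripts of the activin receptors were thus found in all 3 classes, in macrophages at shares well above those of the 10 matrix genes. Inhba and Fst transcripts lay mainly in interstitial and endothelial cells. Fstl3 lay mainly in interstitial cells, with 9.44 CPM in Fbn1 C1039G/+ and 3.17 CPM in wild type endothelial cells. Barcodes in none of the classes, 564 in the Fbn1 C1039G/+ and 775 in the wild type library, had 5 of the 7 genes past the filter and 4 called higher, where 7.2% of 6421 genes were called higher and 3.94% lower.

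Fst was spread unevenly over interstitial cells. Of the Fbn1 C1039G/+ cells 1357 held at least 1 UMI, 662 at least 2, 196 at least 5 and 58 at least 10. Of the wild type cells the numbers were 761, 252, 35 and 3. The fullest cell held 224 Fst UMIs in the Fbn1 C1039G/+ library and 45 in the wild type library. The 1% of cells with most Fst held 41.2% of its UMIs in Fbn1 C1039G/+ and 31.6% in wild type. The genotype difference therefore lay both in more cells with any Fst and in more Fst per holding cell, with 3.25 UMIs per holding cell in Fbn1 C1039G/+ and 1.73 in wild type.

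Inhba was spread more evenly. Cells with at least 1, 2, 5 and 10 UMIs numbered 3169, 1304, 164 and 33 in Fbn1 C1039G/+, and 2358, 761, 52 and 6 in wild type. The 1% of cells with most Inhba held 15.2% of its UMIs in Fbn1 C1039G/+ and 14.6% in wild type. Fstl3, Acvr1, Acvr2a and Acvr1b reached at most 13 UMIs in any interstitial cell.

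**Figure D2:**
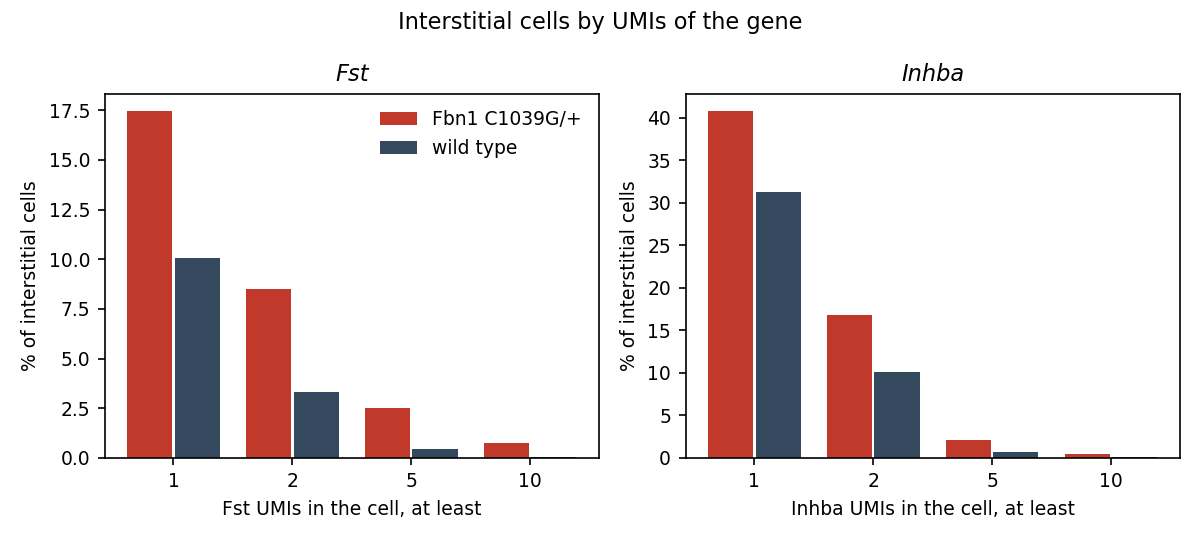
Share of interstitial cells (linear axis, %) with at least 1, 2, 5 or 10 UMIs of Fst (left) and Inhba (right), with Fbn1 C1039G/+ bars left of wild type bars. The Fbn1 C1039G/+ bar is the higher one at each number of Fst UMIs, at 17.5% against 10.1% of cells for at least 1 and 0.747% against 0.0397% for at least 10.

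The Fst level in the interstitial class depended in part on barcodes near its border. Interstitial barcodes with 1% to 2% of matrix UMIs held Fst at 112 CPM in Fbn1 C1039G/+ and 15.0 CPM in wild type, and those with at least 2% held it at 38.6 and 16.1 CPM. Barcodes just outside the class, with 0.5% to 1%, held it at 164 CPM in Fbn1 C1039G/+ and 41.1 CPM in wild type. In the Fbn1 C1039G/+ library Fst was thus highest in cells of low matrix share, a gradient not seen inside the wild type class. Endothelial transcripts moved with it: 141 Fbn1 C1039G/+ and 65 wild type interstitial barcodes held at least 5 UMIs of Pecam1, Cdh5 and Emcn, and Fst stood at 355 CPM in these Fbn1 C1039G/+ and 15.3 CPM in these wild type barcodes. The 141 barcodes held 19.7% of all interstitial Fst UMIs of the Fbn1 C1039G/+ library, and the 65 held 1.06% of those of the wild type library. Without barcodes past the endothelial or the macrophage limit, Fst was 41.8 CPM in Fbn1 C1039G/+ and 16.0 CPM in wild type cells, and Inhba 68.8 and 44.4 CPM. Both were then still called higher.

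Interstitial cells with at least 5 Fst UMIs were 196 in the Fbn1 C1039G/+ library, with 57.2% of its Fst, and 35 in the wild type library, with 19.9%. They were deep, with median totals of 17943.5 UMIs in Fbn1 C1039G/+ and 13943 in wild type, against 9737 and 10010 in cells with no Fst UMI. Of the Fbn1 C1039G/+ ones 11.2% passed the endothelial limit and 14.8% held a Top2a or Mki67 UMI, against 1.17% and 2.39% of cells with no Fst UMI. Of the 35 wild type ones 2.86% and 8.57% did, against 0.809% and 2.12% of cells with no Fst UMI. The part of the greater depth of high-Fst cells in these shares was not tested. Of the 196 Fbn1 C1039G/+ cells 68.4% were female and 14.8% male, against 46.3% and 39.5% of Fbn1 C1039G/+ cells with no Fst UMI. Of the 35 wild type cells 54.3% were female and 34.3% male, against 45.8% and 42.0% of wild type cells with none. Cdkn1a, the gene of the cell cycle inhibitor p21, stood at 909 CPM in the Fbn1 C1039G/+ and 651 CPM in the wild type high-Fst cells, against 249 and 186 CPM in cells with no Fst UMI. Fn1, the gene of fibronectin, stood at 995 CPM in Fbn1 C1039G/+ and 342 CPM in wild type high-Fst cells, against 149 and 79.1 CPM.

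The next question was whether the same interstitial cells held Fst and Inhba. In the Fbn1 C1039G/+ library 22.0% (20.6 to 23.5) of cells with an Inhba UMI also held Fst, against 14.4% (13.3 to 15.4) of cells with none, a difference of 7.64 points (5.89 to 9.42). In the wild type library the shares were 9.37% (8.23 to 10.6) and 10.4% (9.57 to 11.3), a difference of -1.01 points (-2.42 to 0.464). Fst was thus more frequent in Inhba-holding cells than in the others in the Fbn1 C1039G/+ library, and no such excess was seen in the wild type library. Whether the libraries differ in this beyond the mice that were pooled was not tested.

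A deep cell shows more of every gene, so the shares were also read at equal depth. With cells thinned to 5000 UMIs the Fbn1 C1039G/+ shares were 12.1% and 9.53%, a difference of 2.59 points (0.945 to 4.35), and the wild type shares 4.61% and 6.23%, a difference of -1.62 points (-2.82 to -0.216). Within 4 equal groups of cells by depth, from the shallowest up, the Fbn1 C1039G/+ differences were 4.46, -0.698, 3.92 and 7.01 points. Those of the wild type library were -3.30, 0.0501, -2.48 and -1.69 points. Without barcodes past the endothelial or macrophage limit the difference was 6.87 points in Fbn1 C1039G/+ and -1.24 points in wild type. The excess in Fbn1 C1039G/+ cells was smaller at equal depth and its interval still lay above 0, while the wild type interval lay below 0. Barcodes past the endothelial or macrophage limit were kept among the thinned cells, and their part at equal depth was not tested. At that depth both genes were found in 218 Fbn1 C1039G/+ cells and 60 wild type cells, where unrelated detection would give 183 in the Fbn1 C1039G/+ and 77.4 in the wild type library. A cell with no UMI of a gene at this depth can still express it.

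**Figure D3:**
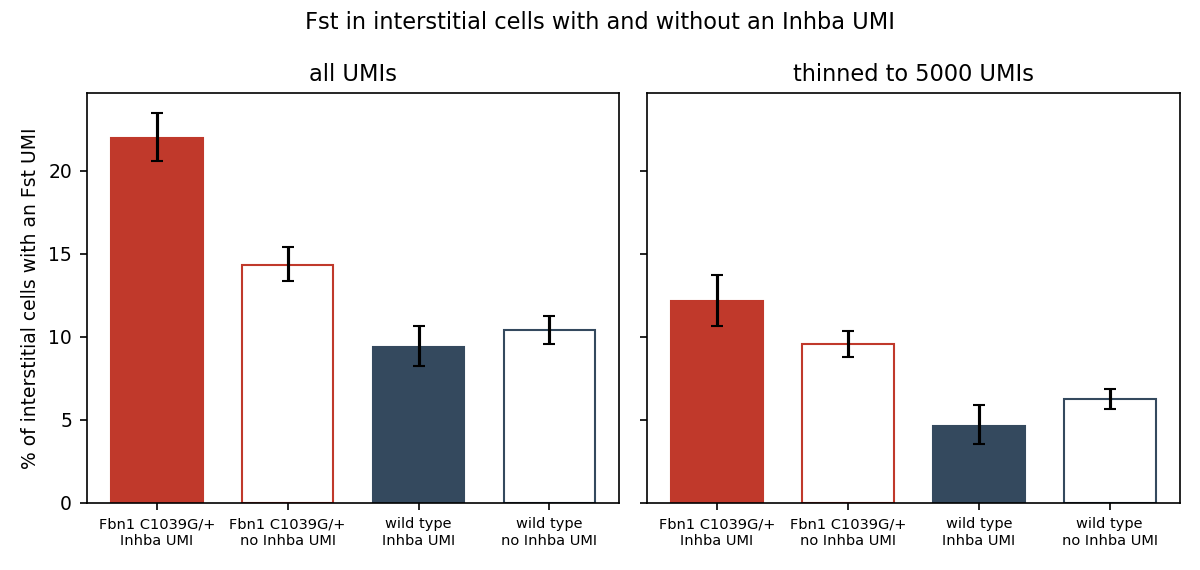
Share of interstitial cells with an Fst UMI (%) among cells with an Inhba UMI (filled) and without one (open), for Fbn1 C1039G/+ (left pair) and wild type (right pair), with all UMIs and with cells thinned to 5000 UMIs; bars are exact binomial 95% intervals. The filled bar is above the open one in Fbn1 C1039G/+ and below it in wild type in both panels.

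The level of Inhba was read against the number of Fst UMIs in the cell. In Fbn1 C1039G/+ interstitial cells with 0, 1, 2 to 4 and 5 or more Fst UMIs it was 66.8, 72.6, 75.5 and 106.6 CPM. In wild type cells it was 43.8, 61.1, 30.5 and 36.6 CPM, the last from 17 UMIs in 35 cells. Only the Fbn1 C1039G/+ library had its highest Inhba level in the cells with most Fst. The wild type interval for 5 or more Fst UMIs, 21.3 to 58.6 CPM, covers the level at 0 Fst UMIs. Interstitial barcodes past the endothelial limit were kept here, with Inhba at 147 CPM in Fbn1 C1039G/+ and 136 CPM in wild type. Those with no endothelial UMI held it at 67.2 and 43.5 CPM, and the part of such barcodes in the series was not tested. In endothelial cells 66.0% of Inhba-holding and 48.6% of other cells held Fst in Fbn1 C1039G/+, and 43.6% and 30.0% in wild type. After thinning, the endothelial differences were 10.4 points (-3.05 to 23.3) in Fbn1 C1039G/+ and 0.103 points (-11.1 to 12.8) in wild type, so neither could be told from 0 at this number of cells.

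Genes that stood higher in cells holding Fst or holding Inhba were then ranked. For every gene with at least 20 CPM in the holding cells of both libraries, its CPM in thinned cells that held Fst was set over its CPM in those that did not, and genes were ranked by the smaller of the log2 ratios of the 2 libraries. Of 5908 ranked genes, those most like Fst were Gdf15, Cenpa, Cdkn1a, Col8a1, Fn1, Pappa, Rbp4, Svep1 and Cks2. Gdf15, which encodes a stress-induced secreted factor of the TGF-beta superfamily, had log2 ratios of 1.95 in Fbn1 C1039G/+ and 1.88 in wild type. Cdkn1a had 1.44 and 1.24, and Cenpa, which encodes the histone of the centromere, 1.49 and 1.30. Col8a1, a network collagen gene, had 1.22 in Fbn1 C1039G/+ and 1.25 in wild type, and Fn1 had 1.49 and 1.18. This filter reads the holding cells, where such genes are high. With 20 CPM asked of all thinned interstitial cells of both libraries instead, a filter added after values were seen, 3 of the first 10 genes passed, Cdkn1a, Col8a1 and Fn1, and they then led the ranking. Gdf15 stood at 34.3 CPM in Fst-holding and 8.16 CPM in other Fbn1 C1039G/+ cells and at 24.6 and 5.96 CPM in the wild type library, and was not among them. Inhba was at place 3205 in the first ranking, with 0.37 in Fbn1 C1039G/+ and -0.07 in wild type.

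The 10 genes most like Inhba were Ptgs2, Bmp2, Nr4a3, Mal, Ctla2a, Tnnt2, Cd38, Tesc, Adamts19 and Ociad2, of 5935 ranked, with log2 ratios mostly smaller than those of the Fst list. Ptgs2, which encodes the inducible cyclooxygenase, had 0.69 in Fbn1 C1039G/+ and 0.91 in wild type. Bmp2, a BMP ligand gene, had 0.75 and 0.58, and Nr4a3, an inducible nuclear receptor gene, 0.51 and 0.57. Under the filter on all thinned cells 7 of these 10 passed, without Nr4a3, Ctla2a and Cd38, and they then held the first 7 places. Ctla2a was at place 5 with Inhba and 14 with Fst. Fstl3 stood above 0 with Fst, at 0.49 in Fbn1 C1039G/+ and 0.33 in wild type, and at -0.01 and -0.16 with Inhba.

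**Figure D4:**
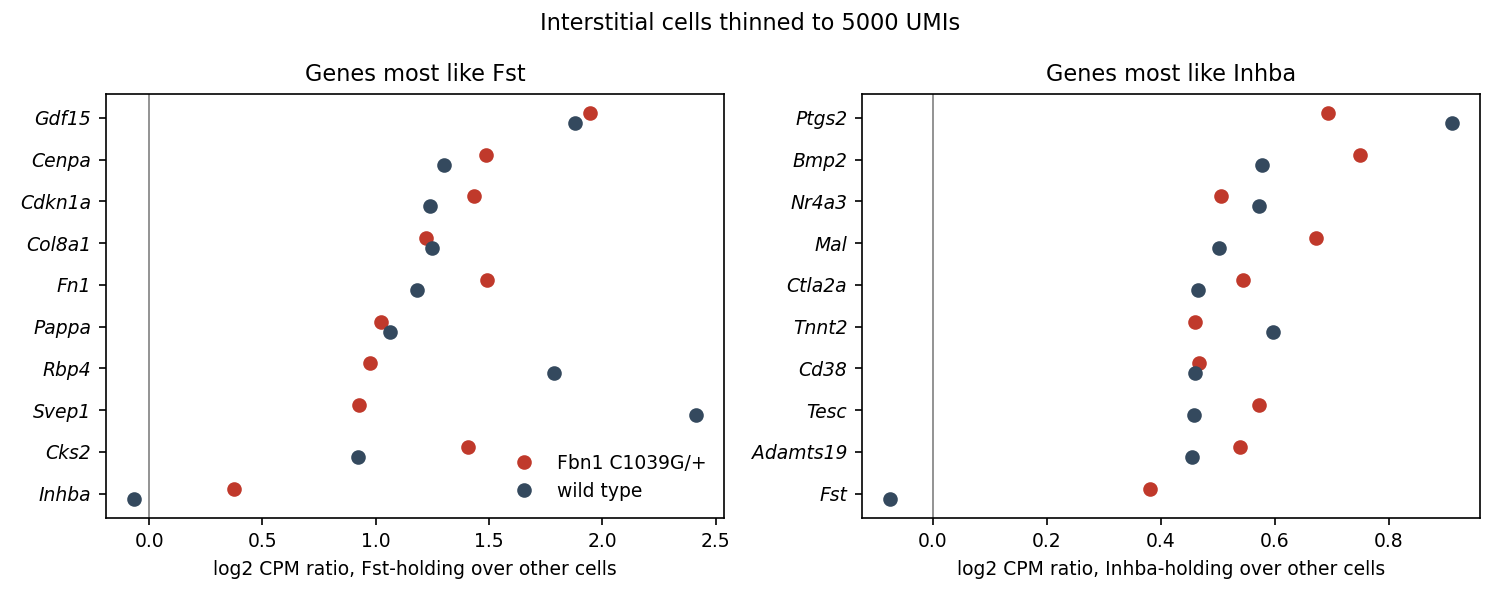
Log2 CPM ratio in cells that hold the gene over cells that do not, in thinned interstitial cells, for the 9 leading genes most like Fst (left) and most like Inhba (right), with the other of the pair in the last line; red points are Fbn1 C1039G/+ and dark points wild type. Cdkn1a lies at 1.44 and 1.24 in the Fst panel, and Inhba at 0.37 and -0.07 in the same panel. Of the 9 genes most like Fst, only Cdkn1a, Col8a1 and Fn1 had 20 CPM over all thinned interstitial cells of both libraries. Of the 9 most like Inhba, all but Nr4a3, Ctla2a and Cd38 did. The others passed the filter only through the holding cells.

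The same ranking in endothelial cells was added after values were seen. The first 10 with Fst there were Cdca3, Kif20a, Cks2, Tpx2, Aspm, Wnt7a, Ube2c, Cdk1, Spc24 and Cenpa, of which Cks2, Ube2c, Cdk1 and Cenpa had 20 CPM over all thinned endothelial cells of both libraries. Cdk1 encodes the kinase that drives entry into mitosis, and Wnt7a a Wnt ligand. Ube2c, which encodes a ubiquitin-conjugating enzyme of mitosis, stood at 148 CPM in Fst-holding and 28.0 CPM in other Fbn1 C1039G/+ endothelial cells, and at 158 and 24.9 CPM in the wild type. Genes that went with Inhba included Sema3c, Ache, Nppc, Chst3, Stmn2, Nog, Cst6, Igfbp5 and Kalrn, and 5 of the first 10, Nppc, Stmn2, Cst6, Igfbp5 and Kalrn, had that level over all thinned cells. Igfbp5, the gene of an IGF-binding protein, stood at 3107 CPM in Inhba-holding and 413 CPM in other Fbn1 C1039G/+ cells, and at 6085 and 1213 CPM in the wild type. Nog, the gene of the BMP antagonist noggin, stood at 23.2 and 3.72 CPM in the Fbn1 C1039G/+ library and 25.3 and 3.97 CPM in the wild type library. The intervals of these Nog ratios were wide, 1.67 to 28.3 in Fbn1 C1039G/+ and 1.59 to 36.6 in wild type. Over all thinned endothelial cells Nog stood at 8.45 CPM in Fbn1 C1039G/+ and 10.8 CPM in wild type, so it passed 20 CPM only in the holding cells.

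Within interstitial cells, 10 states were gated by at least 2 UMIs of their marker genes after thinning, with levels then read from all UMIs, and the cells in none of them made 1 more set. A cell can be in several sets. The Fst ratio was above 1 in 11 of 11 sets and called higher in 8, with a range of 1.02 to 8.34. In cells gated on Prss35 it was 7.14 (6.05 to 8.48), from 79.0 CPM in Fbn1 C1039G/+ and 11.1 CPM in wild type. With Bglap2 and Nrgn it was 8.34 (5.92 to 12.0), from 42.4 CPM in Fbn1 C1039G/+ and 5.09 CPM in wild type, the lowest wild type level of any set. In Top2a and Mki67 cells Fst stood at 130 CPM in 77 Fbn1 C1039G/+ cells and 20.2 CPM in 66 wild type cells. The sets without a called difference were Rspo3, at 9.05 CPM in Fbn1 C1039G/+ and 8.84 CPM in wild type, C3, at 48.0 and 42.4 CPM, and Ifit1 with Ifit3, at 24.4 and 16.8 CPM. Fst was thus not higher by the same factor in all interstitial states.

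Inhba ratios had a narrower range, 1.13 to 2.29, with 7 of 11 sets called higher. In Rspo3 cells, where Fst hardly differed, Inhba was 81.6 CPM in Fbn1 C1039G/+ and 58.0 CPM in wild type, a ratio of 1.41 (1.26 to 1.57). In Bglap2 and Nrgn cells, where the Fst ratio was largest, Inhba was 80.2 and 71.0 CPM, a ratio of 1.13 (0.987 to 1.29). Fstl1 ratios lay between 0.978 and 1.27, Fstl3 ratios between 0.857 and 1.34 and Acvr1 ratios between 0.979 and 1.25, and none of these 3 genes was called in any set.

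**Figure D5:**
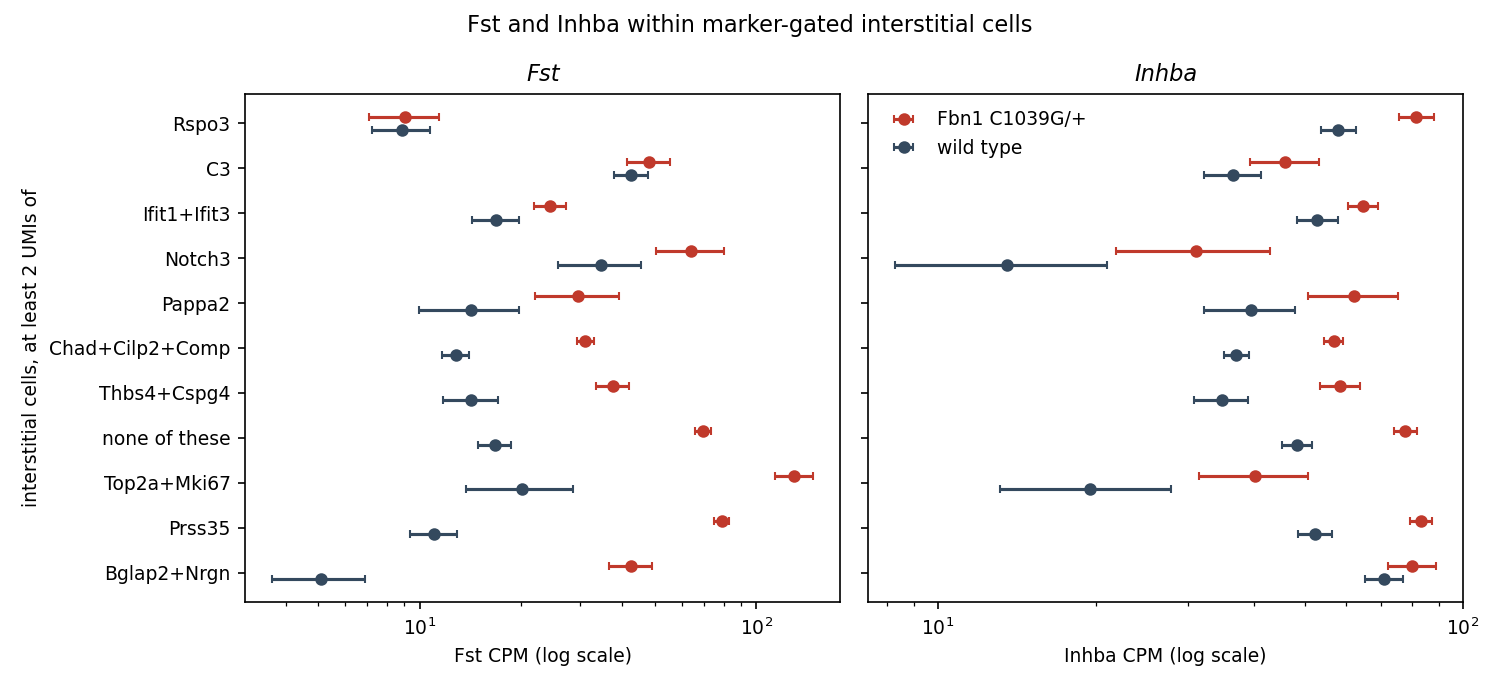
Fst (left) and Inhba (right) in CPM (log axis) within 11 sets of interstitial cells gated after thinning, with Fbn1 C1039G/+ drawn above wild type in each row and bars for exact Poisson 95% intervals. Fst points lie together for Rspo3, at 9.05 and 8.84 CPM, and far apart for Prss35, at 79.0 and 11.1 CPM.

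Other splits changed the size of the Fst ratio. In cells whose Cdkn1a share was above the median of both libraries Fst was 79.3 CPM in Fbn1 C1039G/+ and 18.4 CPM in wild type, a ratio of 4.31 (3.97 to 4.69). In the other cells it was 20.9 and 14.0 CPM, a ratio of 1.497 (1.35 to 1.66) just under the 1.5-fold limit, so Fst was not called in these 4314 Fbn1 C1039G/+ and 4614 wild type cells, which were 55.5% and 61.1% of the class. That split was made after Cdkn1a was seen among the genes most like Fst. It was not made at equal depth, and the part of depth in its values was not tested. Female cells had 63.0 CPM in Fbn1 C1039G/+ and 19.3 CPM in wild type, and male cells 24.5 and 12.6 CPM, with ratios of 3.26 and 1.95. Immediate early genes, which respond to handling of tissue among other stimuli, differed between the libraries: 14 of them summed to 3154 CPM in Fbn1 C1039G/+ and 6097 CPM in wild type interstitial cells. In cells with a low, middle and high share of these genes, 3 groups cut at the same shares in both libraries, the Fst ratios were 2.48, 3.49 and 4.61 and the Inhba ratios 1.85, 1.45 and 1.89. Both genes were higher in the Fbn1 C1039G/+ library in each group.

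The rest of the pathway held no called gene in interstitial cells. Of 58 further genes of activin, inhibin, BMP and TGF-beta receptors, SMADs and their modulators, 29 passed the filter, and 0 were called higher and 0 lower, where 0.945% of all measured interstitial genes were called higher and 1.42% lower, so a count of 0 is near the background. Their median log2 ratio was 0.03, as was that of all measured genes, and the range was -0.21 for Tgfbr3 to 0.53 for Ltbp1. The SMADs that carry the activin signal were close, Smad2 at 40.4 CPM in Fbn1 C1039G/+ and 38.6 CPM in wild type and Smad3 at 31.9 and 30.6 CPM. Pmepa1, a target and brake of TGF-beta signals, stood at 956 CPM in Fbn1 C1039G/+ and 997 CPM in wild type, and Smad7, an inhibitory SMAD, at 146 and 157 CPM. Fkbp1a, which encodes a type I receptor-binding protein, stood at 585 and 446 CPM, Eng, the gene of the TGF-beta coreceptor endoglin, at 215 and 174 CPM, and Ltbp1, a latent TGF-beta binder, at 106 and 72.9 CPM. Inhbb, the gene of the other main activin subunit, stood at 8.77 CPM in Fbn1 C1039G/+ and 7.95 CPM in wild type and Inha at 1.87 and 1.28 CPM, both below the filter.

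In endothelial cells 30 of the 58 genes passed the filter and 3 were called higher, with none lower, where 3.22% of all measured endothelial genes were called higher and 3.23% lower. Among them Gdf15 stood at 37.1 CPM in Fbn1 C1039G/+ and 9.51 CPM in wild type, and Ltbp1 at 586 and 379 CPM. Smad6, an inhibitory SMAD of BMP signals, stood at 207 CPM in Fbn1 C1039G/+ and 154 CPM in wild type, a ratio of 1.35. In macrophages 17 passed and 2 were called lower, Tgif1 at 46.4 CPM in Fbn1 C1039G/+ and 98.7 CPM in wild type and Skil, a SMAD corepressor gene, at 129 and 256 CPM. Of all measured macrophage genes 3.62% were called lower and 1.43% higher. The immediate early genes summed to 5754 CPM in Fbn1 C1039G/+ and 14936 CPM in wild type macrophages, and their part in the macrophage differences was not tested.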

How the data were processed

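Raw UMI counts per gene and barcode were deposited by the authors, 1 matrix per library on mm10. The submitters' processing notes name Cell Ranger 3.1.0 and the file headers name 5.0.1, and which was run is not settled. How the authors chose barcodes that hold cells is not given in the sources used here, and free RNA was not subtracted. From the counts, classes, CPM and ratios were computed in Python 3.11.15 with NumPy 2.4.6, SciPy 1.17.1 and pandas 2.3.3, and the steps were tested on simulated data. Levels have exact Poisson intervals, ratios conditional exact binomial, shares Clopper-Pearson and differences Newcombe intervals. Log2 ratios used a pseudocount of 1 CPM, and cells were thinned with seed 1. Doublets were kept, as the class rule has it. Scrublet in scanpy 1.11.5 called 0% automatically, so an alternative removed the highest scores, 752 Fbn1 C1039G/+ and 732 wild type barcodes. The genes, lists and tests were chosen with earlier results of these data known. Genes named were the 7, pathway genes called or with most CPM, and the 10 most like Fst and Inhba. Others, such as Smad2, Smad3, Smad6, Inhbb, Inha and the endothelial companions, were picked after values were seen. Some genes that this rule names are not reported here. Gene positions are from GENCODE M21.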

Additional observations from a re-analysis of the deposited data

Results flagged for a closer look

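Inhba was higher in Fbn1 C1039G/+ interstitial cells, with a ratio of 1.57, and lower in Fbn1 C1039G/+ endothelial cells, with a ratio of 0.678. The ratios of the whole classes thus went in opposite directions between the same libraries. The endothelial ratio was not called, and its direction depended on whether the Nppc-holding cells were counted in. The difference between classes was not tested. Fstl1 had ratios of 1.14 in interstitial cells, 1.59 in endothelial cells and 0.521 in macrophages, and this difference was not tested either. Its macrophage level, as a share of its interstitial level, lay within the range of the 10 matrix genes in both libraries.

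Barcodes in no class, 564 in the Fbn1 C1039G/+ and 775 in the wild type library, also held these genes. Fst had a ratio of 3.69 there, Inhba 5.09, Fstl1 2.14 and Fstl3 2.11. The levels were 55.7 CPM in Fbn1 C1039G/+ and 15.1 CPM in wild type for Fst, and 76.7 and 15.1 CPM for Inhba. The makeup of these barcodes differed, with 3 red cell genes at 78140 CPM in Fbn1 C1039G/+ and 150096 CPM in wild type and 12 interstitial markers at 9922 and 7816 CPM, and its part in the ratios was not tested.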

How the results depend on the processing

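No paired analysis was possible because each genotype had 1 library. The Fst log2 ratio in interstitial cells, 1.62, stayed called under all 16 alternatives, while its size changed: 1.21 with the class set at 2% matrix UMIs, 1.45 without the highest doublet scores, 0.91 in male cells, 1.35 without barcodes past the endothelial limit, 1.34 without those past the endothelial or macrophage limit, 1.41 without Top2a or Mki67 cells, 1.10 in thinned cells, 1.59 scaled by the median ratio, 1.42 with a pseudocount of 5 CPM, 1.18 as a mean over single cells, 1.5 without the 5 cells richest in Fst of each library and 1.40 without the richest 1%. The mean over single cells had no interval and was called by fold alone. The alternatives on endothelial and macrophage limits, Top2a or Mki67 cells and the richest 1% were chosen after seeing the data. The count of the 7 genes past 1.5-fold, 2, was 1 in male cells, where Inhba was not called. The pathway count of 0 was 2, Gdf15 and Nog, with no filter on low values, where Nog rested on 51 Fbn1 C1039G/+ and 21 wild type UMIs. The shares of all genes called in male cells and without that filter were not counted, so nothing is read from these counts. The Fbn1 C1039G/+ difference of 7.64 points between Inhba-holding and other cells was 3.94 in male cells, 2.59 after thinning and 3.68 as a mean over 4 depth groups. The wild type difference of -1.01 points was -3.09 in female cells. Of the 10 genes most like Fst 3, and of those most like Inhba 7, stayed in the first 10 with the low-level filter on all thinned cells, chosen after seeing the data. No called value changed sign under these alternatives. The other 4 settings gave Fst values of 1.60 to 1.66. With 1 library per genotype, neither mice nor preparation can be told apart from genotype, and genes under 20 CPM could be compared only coarsely.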
